A study of Mus musculus with 80 samples.

Results

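The clones described here stand for cell cycle and DNA replication genes on filter arrays of mouse kidney RNA. They were chosen by name: every clone of both filter sets that the platform table gives exactly 1 gene symbol, where that symbol belongs to the A, B, D or E type cyclins, the Cdk, Cdc, Mcm, Bub, Plk, Aurk, Cenp, Orc, Rfc or replicative polymerase families, the Ink4 and Cip/Kip inhibitors, the ribonucleotide reductase subunits, Top2a, Mki67 or Pcna. Cdk8 and Cdkn1c were left out by the same rule. This gave 150 clones of 106 genes, 71 on set A and 79 on set B, out of 16896 clones in all and 9663 with a single symbol. A name does not make a gene a cell cycle gene: 20 genes with 25 clones, such as the GTPase Cdc42 and its binding partners, the chaperone partner Cdc37 and the transcription factor subunit Cdc73, match by symbol alone and are kept as a group of their own. A narrower list of genes whose transcripts peak between S phase and mitosis in dividing cells held 45 genes with 59 clones.

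Total RNA came from whole kidneys of 40 mice of the inbred laboratory strain C57BL/6, which all ate regular feed without restriction. The mice fell into 4 age groups (17 to 44, 169 to 194, 476 to 499 and 704 to 743 days), each with 5 males and 5 females, and each mouse was measured once on set A and once on set B. The youngest group is shown as classes: 5 mice of 17 to 21 days (3 females and 2 males) and 5 mice of 33 to 44 days (2 females and 3 males). The series compares mice by age and by sex. Labels name no cell type, and RNA of the whole organ pools tubule, vessel, stromal and blood cells, so fewer cells of a type and less RNA per cell cannot be told apart.

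A cell that divides copies its DNA once and then parts it. Cyclins switch on cyclin-dependent kinases, origin recognition and Mcm proteins load the replicative helicase, polymerases with the Pcna clamp and its Rfc loader copy the strands with nucleotides from ribonucleotide reductase, and Aurora, Polo-like and Bub kinases with the centromere proteins steer mitosis. Transcripts of many of these genes are scarce in resting cells and rise together in dividing ones. The rise runs largely through E2F factors at the entry to S phase and through B-Myb complexes later on. In mice new nephrons stop forming within days of birth, the tubules go on growing into young adulthood, and tubule cells of the adult kidney divide rarely unless injured.

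The promoters of this group carry known sequence words. For 95 of the 106 genes RefSeq (GRCm38.p6) gave a promoter window, and the 200 bases before the start were searched on both strands for CCAAT, for the E2F-type words GCGGGAA and GCGCGAA, and for the CHR words TTTGAA and TTCGAA, which are bound in cell cycle promoters. The CCAAT word stood in 29 of 40 windows of the S to M phase genes (72.5%), in 16 of 55 of the other member genes (29.1%) and in 30% of all 27025 windows of that length. A CHR word stood in 12 of 40 (30%), 4 of 55 (7.27%) and 13.6% of all, and an E2F-type word in 10 of 40 (25%), 8 of 55 (14.5%) and 4.34% of all. Matches of CHR and CCAAT words overlapped in 1 member window, and E2F-type words overlapped neither. A match describes the letters and is not a measured binding site. Windows of 4 genes that the results below turn on are shown with matching words in capitals: Mcm5 and Rrm1, which had low estimates in the youngest mice, and Top2a and Mki67, the usual markers of dividing cells, which did not. They lie at chr8:75109309-75109508 (plus strand), chr7:102441495-102441694 (plus strand), chr11:99024190-99024389 (minus strand) and chr7:135716380-135716579 (minus strand), and are printed 5′ to 3′ on the strand of the gene.
Mcm5: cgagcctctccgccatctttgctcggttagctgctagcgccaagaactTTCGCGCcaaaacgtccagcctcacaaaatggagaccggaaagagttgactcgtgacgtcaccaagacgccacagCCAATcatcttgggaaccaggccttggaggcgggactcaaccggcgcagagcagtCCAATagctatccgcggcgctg
Rrm1: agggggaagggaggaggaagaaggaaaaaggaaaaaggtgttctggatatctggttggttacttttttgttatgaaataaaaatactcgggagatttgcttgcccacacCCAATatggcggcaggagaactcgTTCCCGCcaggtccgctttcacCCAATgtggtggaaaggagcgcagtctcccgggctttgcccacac
Top2a: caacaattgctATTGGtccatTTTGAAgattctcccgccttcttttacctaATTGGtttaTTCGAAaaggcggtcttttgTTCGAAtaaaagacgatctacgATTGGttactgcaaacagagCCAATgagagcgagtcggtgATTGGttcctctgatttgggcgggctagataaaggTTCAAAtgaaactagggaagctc
Mki67: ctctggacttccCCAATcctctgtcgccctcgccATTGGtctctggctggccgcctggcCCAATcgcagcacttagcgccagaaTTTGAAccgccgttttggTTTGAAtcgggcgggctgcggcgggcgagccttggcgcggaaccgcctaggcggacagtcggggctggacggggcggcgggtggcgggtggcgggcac
In these letters Mcm5 and Rrm1 each hold 1 E2F-type word and 2 CCAAT words. Top2a holds 4 CHR words with 5 CCAAT words, and Mki67 holds 2 CHR words with 3 CCAAT words. The windows of Rfc1, Pcna and Rrm2, not printed, each hold 1 CCAAT word and 0 E2F-type or CHR words. These genes too had a clone with a lower estimate in the youngest mice, so an E2F-type word was not common to the lower genes.

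Deposited values are scores: on each array the 8448 clones have mean 0 and SD 1. All levels and differences below are therefore in array SDs after quantile normalization of each set, they cannot be read as folds, and a level is compared only between mice for 1 clone. Brightness, the mean rank of a clone on its set as a percentile, says how bright a spot was and not how abundant a transcript is. Of the 150 member clones, 46 (30.7%) lay in the dimmest 25% of spots and 37 in the brightest 25%. Spots of proximal tubule genes were bright: Lrp2 (megalin) stood at the 88.2 and 93.5 percentiles in its 2 clones, Miox at 88.7 and Cubn at 70.7. Each array correlated with its set mates at a mean of 0.888 to 0.965 (set A) or 0.916 to 0.975 (set B). By a rule of 3 scaled median absolute deviations, 8 arrays of 7 mice stood apart: none of these mice was of 17 to 21 days (0), 2 were of 33 to 44 days, 3 of 169 to 194 and 2 of 704 to 743.

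No member clone passed the test in any of the 7 comparisons made (limma with Benjamini-Hochberg adjustment over all 16896 clones, threshold 0.05). The member counts at an adjusted p under 0.05 were 0 throughout, against 0% of all clones for both comparisons of the mice of 17 to 21 days, for 169 to 194 against 17 to 44 days, for 704 to 743 against 169 to 194 days, for the age slope and for sex by age, and 0.107% (18 clones) for sex. Ordinary least squares in place of limma's shared variance also called 0 members in each comparison. The typical member clone had a 95% interval of ± 0.165 array SD for 17 to 21 against 169 to 743 days, ± 0.155 for 704 to 743 against 169 to 194 days and ± 0.11 for sex, as medians over the 150 clones. Its SD over the 40 mice was 0.170 array SD, against 0.174 for the median of all clones. The values that follow are described in that light: those at an unadjusted p under 0.05 are the members with the most evidence, and their number is read against the same share of all clones.

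Mice of 17 to 21 days were set against the 30 mice of 169 to 743 days to ask whether kidneys that are still growing show higher levels of these transcripts. No shift of the whole group to higher values was seen: 74 member clones had an estimate above 0 and 76 below, with a median of -0.000416 array SD, beside 0.000825 for all clones. At an unadjusted p under 0.05, 1 member was higher (0.667% of members, 1.62% of all clones) and 5 were lower (3.33%, against 2.77% of all clones). The lowest adjusted p among members was 0.698. Without 1 of the youngest mice (female, replicate 1, or male, replicate 3) the count was 3 in place of 6. For fits without 1 mouse the share over all clones is not given, here or below. Such counts are therefore not read as particular to the members. Of the 59 S to M phase clones, 34 were above 0 and 25 below, with a median of 0.0107. At an unadjusted p under 0.05, 1 of these 59 was higher and 4 were lower, beside 1.62% and 2.77% of all clones.

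Mki67, which encodes the proliferation marker Ki-67, had 1 clone (spot 821). Its scores at 17 to 21 days were 0.317, 0.516, 0.938, 1.04 and 1.04, and in the 30 mice of 169 to 743 days they ran from 0.124 to 1.31 with a median of 0.786. The young values lay inside the adult range, and the difference was 0.00864 (95% interval -0.312 to 0.33). That range also holds a spread between rounds of arrays. In rounds 1 and 2 the young were at 0.317 and 0.516, and adults ran from 0.164 to 1.02 and 0.124 to 0.872. In round 3 they were at 0.938 and 1.04, adults from 0.72 to 0.957, and in round 4 at 1.04, adults from 0.735 to 1.29. Adults of round 5, which held no mouse of 17 to 21 days, ran from 0.906 to 1.31. Top2a, the topoisomerase that untangles sister chromatids, had 3 clones. For the brightest (spot 12861) the young scores were -0.008, -0.00363, 0.0525, 0.12 and 0.128, and the adult ones ran from -0.283 to 0.573 with a median of -0.00513. Here too every young mouse lay within the adult range, and the differences of the 3 clones were 0.0348 ± 0.081, 0.0107 ± 0.0822 and 0.0245 ± 0.0744 (estimate ± SE).

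**Figure D1:**
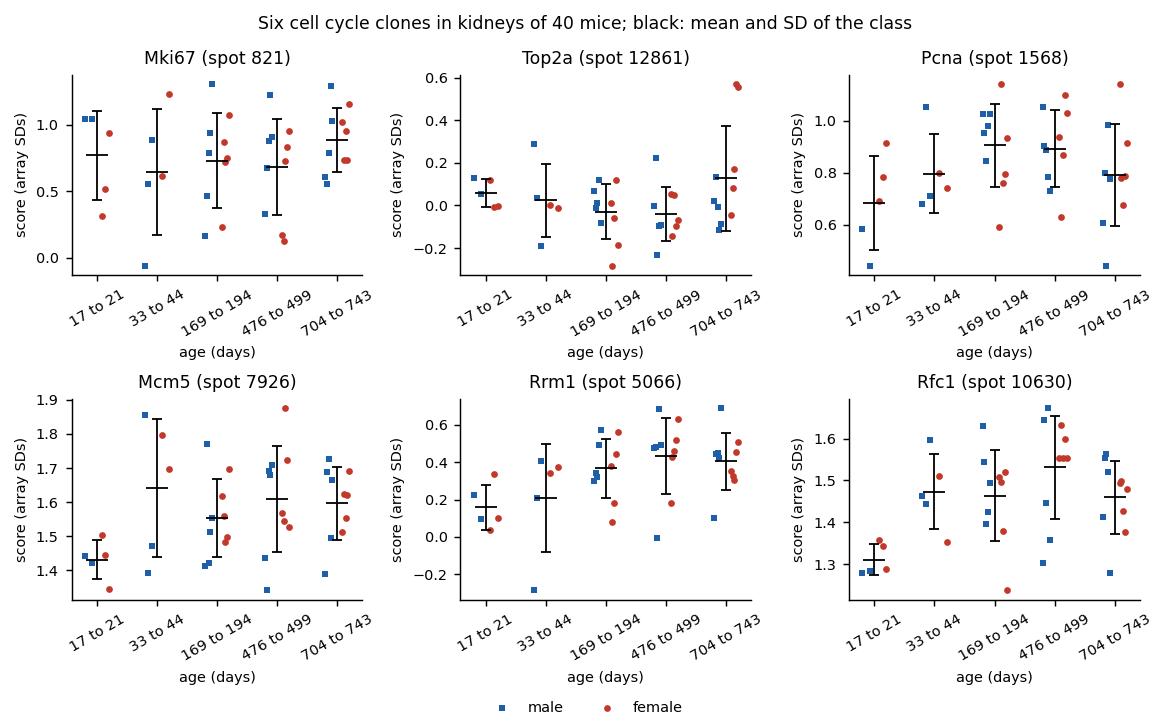
Scores (vertical axis, array SDs) of 6 clones in 40 kidneys, by age class in days; blue squares are males, red circles females, and black bars the mean and SD of the class (5, 5, 10, 10 and 10 mice). Classes overlap in every panel; for Rfc1 the 5 mice of 17 to 21 days sit between 1.28 and 1.36, in the lower part of the adult range.

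Of the 5 lower clones 4 belong to DNA synthesis genes (Rfc1, Rrm1, Rrm2 and Pcna) and 1 to the helicase (Mcm5). Rfc1, the large subunit of the clamp loader, had scores of 1.28, 1.28, 1.29, 1.34 and 1.36 at 17 to 21 days (spot 10630), while adults ran from 1.24 to 1.67 with a median of 1.5. All young mice were under the adult median, the difference was -0.175 (95% interval -0.286 to -0.0641), and within each of the 4 rounds of arrays that held a mouse of this age it was below 0 (adjusted p = 0.698, limma). Its second clone (spot 15923) gave -0.169 ± 0.102. Rrm1, the large subunit of ribonucleotide reductase, had young scores of 0.0366, 0.0983, 0.1, 0.223 and 0.335, and adult ones from -0.00537 to 0.688 with a median of 0.443. That is a difference of -0.245 (95% interval -0.427 to -0.0622), below 0 in 4 of 4 rounds (adjusted p = 1, limma). With the round as a block in the fit, the estimate was -0.186 ± 0.0737 for Rrm1 and -0.183 ± 0.0543 for Rfc1 (spot 10630).

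Mcm5, a subunit of the replicative helicase, had scores of 1.34, 1.42, 1.44, 1.44 and 1.5 in the young mice, and adults ran from 1.34 to 1.88 with a median of 1.56. The difference was -0.161 (95% interval -0.299 to -0.0218), below 0 in 3 of 4 rounds. Pcna, the sliding clamp, had young scores of 0.442, 0.583, 0.693, 0.783 and 0.916, and adult ones from 0.441 to 1.14 with a median of 0.877; its difference was -0.184 (95% interval -0.352 to -0.0156), again below 0 in 3 of 4 rounds. Both young ranges overlapped the adult ones. With the round as a block in the fit, the estimates were -0.16 ± 0.0719 for Mcm5 and -0.166 ± 0.0862 for Pcna. Without the male of 17 to 44 days of replicate 4, Pcna was at -0.126. The clones of the other helicase subunits had estimates nearer to 0, at -0.0449 ± 0.0758 for Mcm2, 0.0158 ± 0.081 for Mcm3, -0.0535 ± 0.0797 for Mcm4, 0.00625 ± 0.066 for Mcm6 and 0.0245 ± 0.072 for Mcm7.

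Rrm2, the small subunit of ribonucleotide reductase, had 3 clones on set A that disagreed. Spot 6782 had a lower estimate in the young mice, at 0.503, 0.503, 0.569, 0.618 and 0.871 against adults from 0.449 to 1.03 with a median of 0.757, a difference of -0.162 (95% interval -0.309 to -0.0146). Spot 5347, a dim clone at the 8.54 percentile, was the 1 member with a higher estimate at an unadjusted p under 0.05, at 0.184 (95% interval 0.0153 to 0.353). With the round as a block it was at 0.12 ± 0.074, and 0 members were then higher at an unadjusted p under 0.05. The brightest clone (spot 7447) gave 0.129 (95% interval -0.0134 to 0.272). The gene therefore has no settled direction between these ages.

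Among cyclins and their kinases no clone had an unadjusted p under 0.05 between these ages (0). Of 13 cyclin clones, 6 had an estimate above 0, and of 15 clones of cyclin-dependent kinases, 5. Cdk1, the mitotic kinase, gave -0.0558 ± 0.0817, Cdk2 -0.0719 ± 0.0627, and Cdk4, the partner of D cyclins, 0.011 ± 0.0754 and -0.0323 ± 0.0628 in its 2 clones. Ccna2, the cyclin of S phase and mitotic entry, gave 0.0907 ± 0.0625 in its brightest clone and -0.0248 ± 0.307 and 0.196 ± 0.144 in its dim ones. Among the mitotic genes Cdc20, the activator of the anaphase promoting complex, gave -0.0944 ± 0.0682, Plk1 0.0463 ± 0.146, Aurka 0.00232 ± 0.0835, Aurkb -0.0916 ± 0.0734 and Ccnb2 -0.0596 ± 0.0778. Cdkn1b (p27) and Cdkn2c (p18), which hold Cdks inactive, gave 0.156 ± 0.0911 and -0.0331 ± 0.0692. Ccnb1, Ccnd1, Cdkn1a and Cdkn2a had no clone with a single symbol in the platform table.

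**Figure D2:**
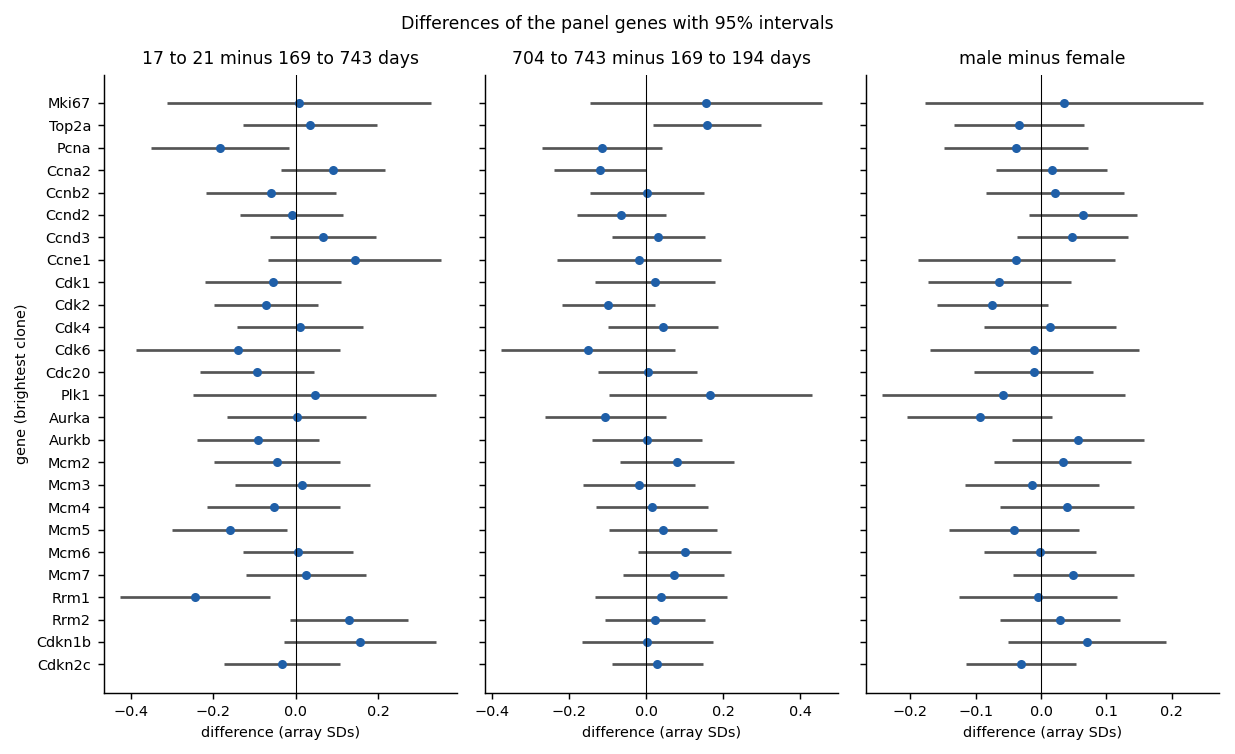
Differences in array SDs (horizontal axis, points) with 95% intervals (bars) for the brightest clone of each of 26 cell cycle genes, for the youngest mice against adults (left), the oldest against 169 to 194 days (middle) and male minus female (right). On the left those of Pcna, Mcm5 and Rrm1 lie below 0, and in the middle that of Top2a lies above it and that of Ccna2 below; the intervals of the other genes, and all on the right, cross 0.

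A comparison with the mice of 33 to 44 days, which shares the same 5 youngest mice, gave 2 higher (1.33%, against 1.8% of all clones) and 7 lower members (4.67%, against 2.5%) at an unadjusted p under 0.05, with a lowest adjusted p of 0.998. Members above 0 numbered 72 and the median was -0.00557, beside 0.00659 for all clones. Mcm5 was at 1.39, 1.47, 1.7, 1.8 and 1.85 at 33 to 44 days; these overlapped the youngest scores, and the difference was -0.222 (95% interval -0.404 to -0.0396). Cdk19, a kinase of the Mediator complex, had scores of 0.655, 0.713, 0.798, 0.837 and 0.872 in the youngest and 0.801, 0.929, 1.04, 1.06 and 1.33 in the older class, a difference of -0.248 (95% interval -0.409 to -0.087). Cdc5l, a splicing factor named for a yeast cell cycle gene, gave -0.26 ± 0.094 in a dim clone and -0.0645 ± 0.105 in its bright one. Orc4, of the origin recognition complex, gave -0.179 ± 0.0737, 0.125 ± 0.0927 and 0.0259 ± 0.194 in its 3 clones.

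Pole4, a small subunit of DNA polymerase epsilon, had the most negative estimate of those 7, -0.421 (95% interval -0.79 to -0.0529), and it rested on 1 mouse. At 33 to 44 days its scores were -0.593, -0.571, -0.303, -0.0871 and 1.14, and at 17 to 21 days -0.747, -0.677, -0.654, -0.322 and -0.276. The highest belongs to the male of 43 days, one of the mice whose arrays stood apart; without that mouse (male of 17 to 44 days, replicate 1) the estimate was -0.138, and the brighter Pole4 clone (spot 9007) gave -0.0459 ± 0.0723. Above 0 stood Ccne1, the cyclin that starts S phase, at 0.328 (95% interval 0.0507 to 0.605) in a spot at the 2.7 percentile, and 1 of 6 clones of Ccnd2, a D cyclin, at 0.184 (95% interval 0.0311 to 0.338) (spot 15054), while the other 5 Ccnd2 clones lay between -0.0687 and 0.0957. Without the 7 mice whose arrays stood apart, 2 members (1.33%) in place of 9 (6%) had an unadjusted p under 0.05, against 3.08% in place of 4.3% of all clones, and without the male of 33 to 44 days of replicate 5, 5. Without those 7 mice the estimates were 0.0466 for the Ccnd2 clone, -0.071 for Orc4 (spot 9697), -0.161 for Cdc5l (spot 5849) and -0.157 for Cdk19. These age classes were spread unevenly over the rounds of arrays. With the round as a block, 6 members (4%, against 3.82% of all clones) had an unadjusted p under 0.05. Ccne1 was then at 0.217 ± 0.132 and Orc4 (spot 9697) at -0.138 ± 0.0775. Mcm5 and Cdk19 were at -0.22 ± 0.0972 and -0.27 ± 0.0851.

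The step from the youngest group to young adults was also taken with both young classes together, at 169 to 194 against 17 to 44 days. At an unadjusted p under 0.05, 7 members were higher at 169 to 194 days (4.67%, against 2.44% of all clones) and 5 lower (3.33%, against 2.65%). The median over members was 0.00324, beside 0.0022 over all clones, and the lowest adjusted p was 0.933. Higher estimates came from Cdk2 at 0.151 (95% interval 0.0313 to 0.271), Rrm1 at 0.183 (95% interval 0.012 to 0.353), Rrm2 (spot 6782) at 0.159 ± 0.0681, the Ccnd2 clone of spot 15054 at 0.14 ± 0.0559 and Cdk13, a transcriptional kinase, at 0.179 ± 0.0827. Cdk2, which drives S phase with cyclins E and A, stood at -0.778 ± 0.141 (SD, n = 10) at 17 to 44 days and -0.627 ± 0.0698 (SD, n = 10) at 169 to 194 days, and the groups overlapped. Rrm1 stood at 0.184 ± 0.209 (SD, n = 10) and 0.367 ± 0.159 (SD, n = 10).

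Lower at 169 to 194 days were Cenpt, a kinetochore protein, at -0.176 (95% interval -0.295 to -0.0578), 1 of 3 clones of Cdc25a, the phosphatase that activates Cdk2, at -0.203 (95% interval -0.357 to -0.0491), and Ccnb1ip1, a meiotic recombination factor that binds cyclin B, at -0.134 ± 0.0603. Cdk5rap2, a centrosome protein, gave -0.104 ± 0.0486 and Pole2 -0.122 ± 0.0598. Cenpt scores at 17 to 44 days ran from 0.395 to 0.866 with a median of 0.58 and at 169 to 194 days from 0.238 to 0.539 with a median of 0.441; within rounds the older mouse was higher in 1 of 10 pairs of the same sex. The other 2 Cdc25a clones gave 0.0337 ± 0.0847 and 0.0116 ± 0.0933. With the 33 to 44 day mice alone as the young group, the balance turned: 3 members were higher (2%, against 2.46% of all clones) and 11 lower (7.33%, against 3.78%), and Ccnd2 (spot 15054) and Cdk5rap2 were at 0.232 and -0.171. In the fit of both classes, the count of 12 (8%, against 5.08% of all clones) became 4 (2.67% of members, 3.81% of all clones) without the 7 mice whose arrays stood apart, 7 (4.67% of members, 4.88% of all clones) with array weights, and 5 without the female of 169 to 194 days of replicate 5. Without those 7 mice Cdk2, Rrm1 and Ccnd2 were at 0.0843, 0.0877 and 0.0732, and Cenpt, Ccnb1ip1, Cdk5rap2 and Pole2 at -0.0983, -0.0809, -0.0394 and -0.0794.

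Old age was examined between 704 to 743 and 169 to 194 days, groups of 10 mice each, the younger of which is also in the comparison just given. Here 2 members were higher (1.33%, against 1.09% of all clones) and 2 lower (1.33%, against 1.26%) at an unadjusted p under 0.05, and 80 of 150 estimates were above 0, with a median of 0.00331 beside 0.000988 for all clones. Top2a in its brightest clone stood from -0.116 to 0.573 with a median of 0.051 in the old mice and from -0.283 to 0.118 with a median of -0.000188 in those of 169 to 194 days. The difference was 0.158 (95% interval 0.0175 to 0.297); it was above 0 in 5 of 10 pairs of the same round and sex, 2 old females held the highest scores, and without the mice whose arrays stood apart it was 0.0445. The other Top2a clones gave 0.0366 ± 0.0771 and 0.00944 ± 0.0678. Cenpj, which builds centrioles, gave 0.228 (95% interval 0.025 to 0.431) in a spot at the 5.49 percentile, and 0.134 without the male of replicate 1 at 704 to 743 days.

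Lower estimates came from a clamp loader subunit and a cyclin. Rfc5, a small clamp loader subunit, was -0.901 ± 0.132 (SD, n = 10) at 169 to 194 days and -1.09 ± 0.167 (SD, n = 10) at 704 to 743 days in its dimmer clone, a difference of -0.188 (95% interval -0.325 to -0.0513), below 0 in 8 of 10 pairs; its brighter clone gave -0.0565 ± 0.0733. Ccna2 (spot 14089) was 0.0207 ± 0.0872 (SD, n = 10) and -0.0998 ± 0.0989 (SD, n = 10), a difference of -0.12 (95% interval -0.241 to -0.000384), below 0 in 9 of 10 pairs, while its 2 dim clones gave -0.122 ± 0.287 and 0.0448 ± 0.135. Both groups overlapped in each case. Mki67 ran from 0.164 to 1.31 with a median of 0.769 at 169 to 194 days and from 0.556 to 1.29 with a median of 0.871 at 704 to 743 days, a difference of 0.156 (95% interval -0.145 to 0.457). Pcna gave -0.115 ± 0.077, Plk1 0.166 ± 0.13, Cdk1 0.0221 ± 0.0769, Mcm2 0.0802 ± 0.0732, Mcm6 0.0999 ± 0.0597 and Cdkn1b 0.0029 ± 0.0843. The count of 4 (2.67%, against 2.36% of all clones) became 11 (7.33% of members, 5.73% of all clones) without the 7 mice whose arrays stood apart and 8 (5.33% of members, 5.55% of all clones) with array weights, so that members and all clones moved together; 0 members were called in either. Rfc5 was at -0.12 without those mice. Without the female of replicate 2 or of replicate 5 at 169 to 194 days, or of replicate 4 at 704 to 743 days, the count was 2.

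**Figure D3:**
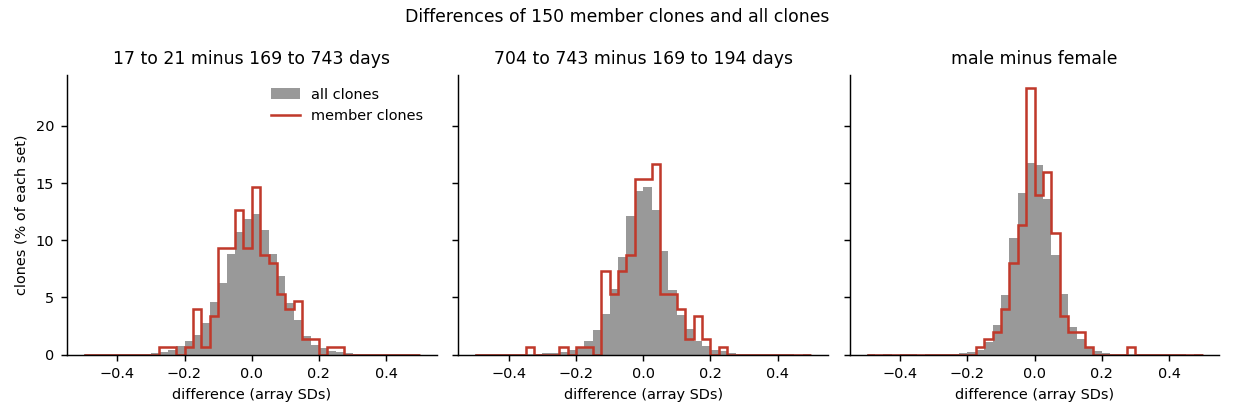
Share of clones (vertical axis, % of each set) by difference in array SDs (horizontal axis) for all 16896 clones (grey) and the 150 member clones (red line), in 3 comparisons. The member distribution lies over that of all clones, with both medians near 0 in each comparison.

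Over all 40 mice a straight line was fitted against age with sex as a second term. In this fit 4 members had a positive slope (2.67%, against 3.04% of all clones) and 2 a negative one (1.33%, against 2.16%) at an unadjusted p under 0.05, and the lowest adjusted p was 0.937. Positive slopes were 0.103 ± 0.0408 array SD per year for Rrm1, 0.0802 ± 0.0323 for Rfc3, another clamp loader subunit, 0.0682 ± 0.0278 for the Ccnd2 clone of spot 15054 and 0.0753 ± 0.032 for Cdk7, the kinase that activates other Cdks and is part of the transcription factor TFIIH. Rrm1 means by class, from youngest to oldest, were 0.159, 0.21, 0.367, 0.435 and 0.406, the lower ones being those of the mice of 17 to 44 days. Negative slopes were -0.0866 ± 0.0429 for the Cdc25a clone of spot 33 and -0.346 ± 0.148 for a Cdc14b clone whose spot was at the 0.868 percentile of brightness; the other 2 Cdc14b clones, of the mitotic exit phosphatase, gave -0.025 ± 0.0237 and 0.0242 ± 0.0424. Without the 7 mice whose arrays stood apart, the slopes were 0.0281 for Ccnd2, -0.0334 for Cdc25a and -0.137 for Cdc14b, and 0.101 for Rrm1. Slopes of the usual markers were 0.0674 (95% interval -0.0732 to 0.208) for Mki67, 0.0406 ± 0.0369 for Top2a and 0.013 ± 0.0389 for Pcna.

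Males and females were compared over the 4 age groups, with 20 mice of each sex. At an unadjusted p under 0.05, 1 member was higher in males (0.667%, against 1.76% of all clones) and 4 lower (2.67%, against 2.72%), with a lowest adjusted p of 0.982. Plk4, the kinase that starts centriole copying, ran from 0.682 to 1.36 with a median of 1.07 in males and from 0.8 to 1.48 with a median of 1.26 in females, a difference of -0.14 (95% interval -0.246 to -0.0339), below 0 in 12 of 20 pairs of the same round and age group. Cdc7, the kinase that fires origins, ran from -1.75 to -1.03 with a median of -1.35 and from -1.67 to -1 with a median of -1.21, a difference of -0.126 (95% interval -0.241 to -0.0106), below 0 in 16 of 20 pairs. Sexes overlapped widely for both. Cdc25c gave -0.122 ± 0.058, and the Bub3 clone of spot 4674, a spindle checkpoint protein, -0.104 ± 0.0489 beside -0.0709 ± 0.0429 and -0.0301 ± 0.0501 in its other clones; without the mice of 17 to 21 days the spot 4674 clone was at -0.058. Leaving out 1 mouse in turn moved the count of 5 to between 1 and 7. The higher one was Cenpe, a kinetochore motor, at 0.11 ± 0.0527, with 0.0285 ± 0.0467 in its second clone. Of the 23 clones of mitotic kinases, phosphatases and checkpoint genes, 7 had an estimate above 0, with a median of -0.0264 beside -0.00117 for all clones. Other roles went the other way. Of 13 cyclin clones 10 were above 0, with a median of 0.0292, and of 20 origin licensing and helicase clones 12, with 0.0153.

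A sex difference that varies with age was tested by an F test, in which 6 members (4%, against 3.23% of all clones) had an unadjusted p under 0.05 and the lowest adjusted p was 1. The 5 with the most evidence were clones of Cdc25a (F = 4.9), Cenpb (F = 3.33), Cdkn2c (F = 3.29), Top2a (F = 2.98) and Ccnb1ip1 (F = 2.95).

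Where a gene had several clones, they often differed. For 17 to 21 against 169 to 743 days, 31 member genes had 2 or more clones, and in 9 of them all clones had the same sign; of 63 pairs of clones 30 (47.6%) shared a sign, against 52.3% of 3453 pairs over all genes with a single symbol. For 704 to 743 against 169 to 194 days 31 of 63 pairs did (49.2%, against 52.4%), and for sex 35 of 63 (55.6%, against 53%). Over the 40 mice the median correlation (Pearson) of 2 clones of 1 member gene was -0.00394 within a set (35 pairs) and 0.106 across sets (28 pairs), beside 0.0425 (1956 pairs) and -0.000991 (1497 pairs) over all genes; clones of a set share their arrays. Correlations over 0.3 were found for 2 of 35 member pairs within a set (5.71%, against 22.9% over all genes) and for 6 of 28 across sets (21.4%, against 10.6%). Rfc1, at -0.175 and -0.169, and Top2a, with 3 estimates between 0.0107 and 0.0348, were among the genes whose clones gave close values in the youngest mice, whereas Cenpa, the histone of the centromere, gave -0.254 and 0.0821. Each of the 3 Top2a estimates was smaller than its SE, so their closeness does not show a common difference.

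**Figure D4:**
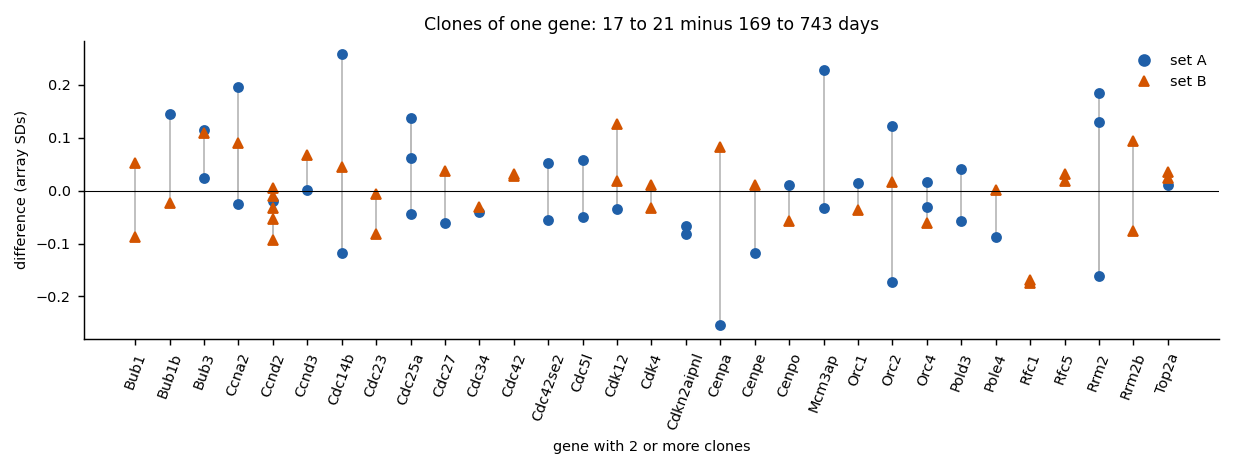
Differences between mice of 17 to 21 and 169 to 743 days (vertical axis, array SDs) for every clone of the 31 member genes with 2 or more clones (horizontal axis); blue circles are set A, orange triangles set B, and grey lines join clones of a gene. Clones lie on both sides of 0 for 22 genes; Rfc1 and the 3 Top2a clones lie close together, while Cenpa, Mcm3ap, Cdc14b, Orc2 and Rrm2 spread widely.

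By role, no group of members was called (0 clones in each). DNA synthesis (24 clones of 15 genes) held 4 of the 5 lower estimates at 17 to 21 days at an unadjusted p under 0.05 and the 1 higher, yet 13 of its 24 clones lay above 0 and its median was 0.00561. Origin licensing and helicase genes (20 clones) had a median of -0.0329, centromere genes (19 clones) 0.0103, and mitotic kinases, phosphatases and checkpoint genes (23 clones) 0.0463. The centromere group also held the clone of Cenpj, a gene that builds centrioles. Of the 59 S to M phase clones, 22 (37.3%) lay in the dimmest 25% of spots. A mean deviation over all 59 was taken in each mouse as a description. It ran from -0.0254 to 0.019 at 17 to 21 days, -0.0317 to 0.0251 at 33 to 44, -0.0472 to 0.0407 at 169 to 194, -0.0597 to 0.0532 at 476 to 499 and -0.0292 to 0.0586 at 704 to 743 days, so every class overlapped the others. Brightest-clone estimates are given by promoter word as a description. For the youngest mice against adults the median was -0.0232 in the 16 genes with a CHR word and 0.0146 in the 79 without, and for the oldest mice against 169 to 194 days 0.0198 and -0.0000. For E2F-type words (18 genes with, 77 without) these were -0.0242 and 0.0158, then 0.0187 and 0.00128. For CCAAT (45 with, 50 without) they were 0.00232 and 0.0139, then -0.00885 and 0.0189.

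**Figure D5:**
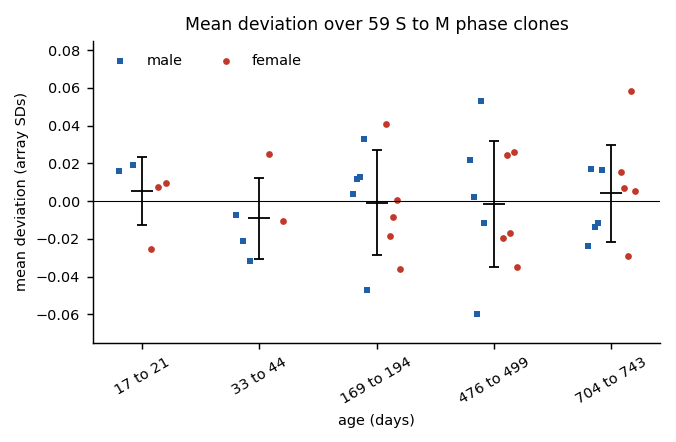
Mean deviation of 59 S to M phase clones from their means over all mice (vertical axis, array SDs), 1 point per mouse, by age class in days; blue squares are males, red circles females, and black bars the mean and SD of the class. All points lie between -0.0597 and 0.0586, and the classes overlap.

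The 5 rounds of arrays, inferred from serial numbers in the titles, took a larger share of the members' variance than age or sex did. Rounds accounted for a median of 18.5% of a member clone's variance over the 40 mice, with 10.3% of the degrees of freedom. The 4 age groups accounted for 6.03% with 7.69%, and the sexes for 1.1% with 2.56%. All clones gave like medians of 18.4%, 5.55% and 1.25%. Each round held 1 male and 1 female of every age group, but mice of 17 to 21 days were in 4 of the 5 rounds only.

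Other genes of the same processes, chosen by name from textbook lists and not among the members, were also read. Of 145 such genes 110 had clones (158), and at an unadjusted p under 0.05 the mice of 17 to 21 days had 1 clone higher (0.633%, against 1.62% of all clones) and 7 lower (4.43%, against 2.77%) than those of 169 to 743 days, with a median over the list of 0.00745. Those with the smallest p among the 7 were Anapc7, an anaphase promoting complex subunit, at -0.249 ± 0.0629, Ube2s, its chain-elongating enzyme, at -0.177 ± 0.0574, Smc2 of condensin at -0.21 ± 0.0722 and Cks2, a Cdk-binding protein, at -0.225 ± 0.0832. Between 704 to 743 and 169 to 194 days 1 clone was higher (0.633%, against 1.09% of all clones), Zwint of the kinetochore at 0.257 ± 0.0742, and 1 lower (0.633%, against 1.26%), Top2b at -0.194 ± 0.0832. None was called at an adjusted p under 0.05 (0, limma, in all 7 comparisons). Of 31 p53 and arrest genes 13 had clones outside the members (19), and 0 clones had an unadjusted p under 0.05 at 17 to 21 against 169 to 743 days; in the oldest mice against those of 169 to 194 days 1 was higher, Klf6 at 0.243 ± 0.117 (5.26% of the list, against 1.09% of all clones).

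Markers of other cells were read beside these results. Nephron progenitor markers had 3 genes of 19 on the arrays (4 clones, mean deviation -0.19 to 0.0854 at 17 to 21 days and -0.231 to 0.144 at 169 to 743), and none differed at an unadjusted p under 0.05 between these ages (0). Erythroid markers, red cell genes with 5 genes of 14 and 21 clones, had a mean deviation of -0.0294 to 0.206 at 17 to 21 days, -0.0896 to 0.00107 at 33 to 44 and -0.241 to 0.0845 at 704 to 743. At an unadjusted p under 0.05, 5 of their clones were higher (23.8%, against 1.8% of all clones) and 1 lower (4.76%, against 2.5%) in the youngest mice than at 33 to 44 days. Those with the smallest p were all clones of the globin genes Hba-a1 and Hba-a2, so they do not count as separate genes. Against 169 to 743 days, 17 of the 21 clones lay above 0. At an unadjusted p under 0.05, 1 was higher there (4.76%, against 1.62% of all clones) and 0 lower (against 2.77%). Markers of B and plasma cells, 2 genes of 14, had mean deviations of -0.233 to 0.112 at 169 to 194 days and -0.0409 to 0.291 at 704 to 743. Macrophage markers, 5 genes of 16, had -0.197 to -0.0215 at 33 to 44 days and -0.0512 to 0.099 at 17 to 21, and T and NK cell markers had 0 genes of 15. Between 17 to 21 and 169 to 743 days the resident cells were read in the same way, by the number of clones with an estimate above 0, the median difference and the range of the mean deviation. Proximal tubule markers, 3 genes of 18 (4 clones, 0 above 0, median -0.0671), ran -0.108 to 0.0732 at 17 to 21 days and -0.103 to 0.208 at 169 to 743. Endothelial markers, 4 genes of 12 (4 clones, 0 above 0, median -0.0718), ran -0.223 to 0.173 at 17 to 21 days and -0.366 to 0.305 at 169 to 743. Loop of Henle and distal tubule markers, 2 genes of 9 (5 clones, 4 above 0, median 0.0363), ran -0.0293 to 0.138 at 17 to 21 days and -0.249 to 0.114 at 169 to 743. Podocyte markers, 2 genes of 7 (2 clones, 1 above 0, median 0.00299), ran -0.123 to 0.181 at 17 to 21 days and -0.303 to 0.199 at 169 to 743. Fibroblast and matrix markers, 10 genes of 12 (19 clones, 9 above 0, median -0.000551), ran -0.0362 to 0.0253 at 17 to 21 days and -0.0848 to 0.0929 at 169 to 743. The 1 collecting duct clone gave 0.0887. The proximal tubule and endothelial clones thus lay below 0 in the youngest mice (0 of 4 above 0 in each). Their mean deviations were also below 0 at 33 to 44 days. At 17 to 21 and 33 to 44 days these were -0.0437 and -0.0535 for proximal tubule markers, and -0.0481 and -0.065 for endothelial ones. All 4 proximal tubule clones had a slope with age above 0, with a median of 0.0295 array SD per year. None of the 8 proximal tubule and endothelial clones had an unadjusted p under 0.05 between 17 to 21 and 169 to 743 days (0). Lists for growth were read at 17 to 21 against 169 to 743 days, at an unadjusted p under 0.05 (1.62% of all clones higher, 2.77% lower). Growth factor and Myc genes (14 of 25) had 1 clone higher (5.88%), Igf1r at 0.173 ± 0.0856, and 1 lower (5.88%). Imprinted and juvenile growth genes (9 of 15) had 0 higher and 1 lower (5.56%). The lower clone was the same in both lists, Igf2 (spot 6628) at -0.21 ± 0.0655. Its slope with age was 0.151 ± 0.0287 array SD per year. The adjusted p of that slope, the lowest of all clones, was 0.069 (limma), above the threshold. The part of these cells in the members' values was not tested.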

How the data were processed

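The authors deposited 1 score per clone and array. Per the labels, total RNA was copied into cDNA with a 33P label and hybridised to nylon filters. In the deposited tables each of the 80 columns has mean 0 and SD 1 over its 8448 clones. How the filters were read and corrected for background, and on what scale, is not given in the sources used here, so no folds are reported.

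Scores were quantile normalized within each set and fitted with limma 3.58.1 in R 4.3.3 (lmFit, eBayes), each set separately, with Benjamini-Hochberg adjustment over 16896 clones. Comparisons of the mice of 17 to 21 days came from 5 age classes plus sex, the slope from age in years of 365 days plus sex, and the others from the 8 sex and age means. All 40 mice entered every fit, and their number limits the precision. Nothing says how the mice were housed or related, so p-values measure the spread between these mice. For 1 male of 714 days the description names another mouse, and the title, sex and age fields were followed. No columns were left unused (0). Fits were tested on simulated data.

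Members, lists and tests were chosen with earlier results of these data known. Named clones are those called, the 5 with the smallest p per direction among those at an unadjusted p under 0.05, and a panel of cell cycle genes given whatever their values; listed genes outside the members are at most 4 per list by p. A gene is represented by its brightest clone, with the others beside it. Platform symbols were matched by gene identifier to RefSeq (9641 of 9663, all 150 members). No genome build is given for the clones; promoter windows are RefSeq's. Mcm3ap, an mRNA export factor, was moved out of the helicase group once the clones had been listed. Alternatives were the scores as deposited, rounds as a block, no dim clones, array weights, no mice with outlying arrays, ordinary least squares, other age classes, and each mouse left out.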

Additional observations from a re-analysis of the deposited data

Results flagged for a closer look

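The brightest clone of each of 26 cell cycle genes was looked at in the 8 groups of 5 mice. In 15 of 208 groups (7.21%) the highest or lowest mouse was separated from the next by over 0.71 of the group's range, where chance alone does so in about 1 in 20. Aurka (spot 1126) stood at -1.05 in the male of 43 days (17 to 44 days, replicate 1), with the other 4 between -0.746 and -0.626. In the male of 180 days (169 to 194 days, replicate 4) Plk1 (spot 4253) was at -0.284, and the other 4 lay between 0.186 and 0.236. A score of -0.217 for Plk1 (spot 4253) came from the female of 169 days (169 to 194 days, replicate 4), beside 0.0659 to 0.144 in the other 4. Plk1 (spot 4253) stood at 1.85 in the female of 704 days (704 to 743 days, replicate 5), with the other 4 between -0.154 and 0.216. In the male of 733 days (704 to 743 days, replicate 5) Ccne1 (spot 6492) was at -2.69, and the other 4 lay between -1.9 and -1.73. A score of 1.85 for Mcm5 (spot 7926) came from the male of 43 days (17 to 44 days, replicate 1), beside 1.39 to 1.47 in the other 4. Ccnd3 (spot 8464) stood at 0.344 in the female of 194 days (169 to 194 days, replicate 3), with the other 4 between 0.214 and 0.246. In the female of 479 days (476 to 499 days, replicate 5) Ccnd3 (spot 8464) was at 0.41, and the other 4 lay between 0.109 and 0.155. A score of 1.98 for Mcm4 (spot 10658) came from the female of 19 days (17 to 44 days, replicate 2), beside 2.21 to 2.28 in the other 4. Mcm6 (spot 11411) stood at 0.0558 in the female of 19 days (17 to 44 days, replicate 2), with the other 4 between 0.302 and 0.38. In the female of 17 days (17 to 44 days, replicate 1) Top2a (spot 12861) was at 0.12, and the other 4 lay between -0.0112 and 0.00275. A score of -0.0175 for Cdk4 (spot 13457) came from the male of 40 days (17 to 44 days, replicate 5), beside 0.395 to 0.55 in the other 4. Ccna2 (spot 14089) stood at -0.492 in the male of 40 days (17 to 44 days, replicate 5), with the other 4 between 0.0127 and 0.101. In the female of 180 days (169 to 194 days, replicate 5) Cdk6 (spot 14180) was at -0.425, and the other 4 lay between -1.78 and -1.57. A score of -1.9 for Cdk6 (spot 14180) came from the female of 499 days (476 to 499 days, replicate 2), beside -1.66 to -1.57 in the other 4. The sex by age test gave no member (0) at an adjusted p under 0.05 (limma), with 6 at an unadjusted p under 0.05.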

How the results depend on the processing

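The number of members called was 0 in every comparison under every alternative run, and no clone named for its p in a comparison changed sign there. What moved was the number of members at an unadjusted p under 0.05, and the share over all clones moved the same way in each case named here. For 17 to 21 minus 33 to 44 days (9; 6% of members, 4.3% of all clones) it was 2 (1.33% of members, 3.08% of all clones) without the mice with outlying arrays. For 169 to 194 minus 17 to 44 days (12; 8%, 5.08%) it was 7 (4.67% of members, 4.88% of all clones) with array weights, 4 (2.67% of members, 3.81% of all clones) without those mice and 14 (9.33% of members, 6.24% of all clones) with the mice of 33 to 44 days alone as the young group, where higher and lower members turned from 7 and 5 to 3 and 11. For 704 to 743 minus 169 to 194 days (4; 2.67%, 2.36%) it was 7 (4.67% of members, 4% of all clones) with round as a replicate block, 2 (1.92% of members, 2.31% of all clones) without the dimmest 25% of clones, 8 (5.33% of members, 5.55% of all clones) with array weights and 11 (7.33% of members, 5.73% of all clones) without the mice with outlying arrays. For sex (5; 3.33%, 4.48%) it was 10 (6.67% of members, 7.73% of all clones) with array weights and 3 (2% of members, 3.8% of all clones) without the mice of 17 to 21 days, and for sex by age (6; 4%, 3.23%) it was 11 (7.33% of members, 6.63% of all clones) with the replicate block. The cause was not tested.

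The share over all clones is not given for the fits with 1 mouse left out in turn, so their counts are not read as particular to the members. With 1 mouse left out in turn (40 fits each), the number of members at an unadjusted p under 0.05 ran from 3 to 7 (17 to 21 minus 169 to 743 days), 5 to 13 (17 to 21 minus 33 to 44), 5 to 15 (169 to 194 minus 17 to 44), 2 to 5 (704 to 743 minus 169 to 194), 4 to 9 (slope), 1 to 7 (sex) and 2 to 8 (sex by age). Over 1.5 times away lay, in that order, the fits without female 1 or male 3 of 17 to 44 days (3 each); male 5 of 17 to 44 (5); female 5 of 169 to 194 (5); females 2 and 5 of 169 to 194 and female 4 of 704 to 743 (2 each); and 0 fits for the slope. For sex they were 12 fits: 1 without male 5 of 476 to 499 days; 2 without females 2 and 4 of 169 to 194, female 3 of 17 to 44, female 1 and male 5 of 704 to 743; 3 without males 2 and 5 of 169 to 194, male 4 and female 4 of 476 to 499, female 2 and male 3 of 704 to 743. For sex by age they were 9 fits: 2 without male 4 of 704 to 743; 3 without female 3 of 169 to 194, males 1 and 4 and females 1 and 2 of 476 to 499, males 1 and 3 and female 5 of 704 to 743.

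The round is the replicate number, inferred from serial numbers. After group means were removed, 80 of 140 pairs of mice of one round correlated over 0.1 (mean 0.165), as did 120 of 640 pairs of different rounds (mean -0.0652), and 25 of 40 mice correlated best with a mouse of their own round. Mice of one round thus deviated together more often than others, but not in every pair, and no label says what a round is, so the fits without the block are the ones reported. With the block 0 members were called in each comparison. Values of single named clones stayed within 1 SE of the reported one in 11815 of 11912 refits (sex by age not counted). Most of these refits left out only 1 mouse and shared all others, so that closeness was largely built in. Of the refits that moved further, 18 left out 1 mouse and 79 were other alternatives. Without the mice with outlying arrays, Pole4 (spot 6888) at 17 to 21 minus 33 to 44 days moved from -0.421 to -0.0527. The number of arrays and an unstated background level limit what dim clones can show.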
